A study of Mus musculus with 14 samples.

Results

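The arrays described here compare mouse fibroblasts that received the SKO factors together with HDAC7 and fibroblasts that received the SKO factors together with an empty Flag vector. They were chosen by their titles: 4 arrays are labelled SKO+HDAC7 and 4 SKO+Flag, which makes 8 of the 14 arrays of the series. The description field is identical on all 14 arrays and gives a pre-iPSC line and another day; it contradicts the titles and was not used. Each arm has 2 arrays of cells lysed at day 6 and 2 of cells lysed at day 10, numbered by the labels as experiments 1 and 2. All cells were fibroblasts from ICR mouse embryos, grown in medium for mouse embryonic stem cells, and feeder cells were removed before the RNA was taken. The remaining 6 arrays hold cells given SKO with MEF2C (4 arrays) or GFP alone (2 arrays). They enter the results below as levels and in the comparisons with SKO+MEF2C. A single model was fitted to all 14 arrays, so the SKO+MEF2C arrays also shape the standard errors and p-values of every comparison. SKO is not written out in the labels (by common usage Sox2, Klf4 and Oct4, the product of Pou5f1), and the vectors, their promoters and the species of the HDAC7 cDNA are not given in the sources used here. Nothing says that the 2 experiments of a day were separate cultures, so each p-value reflects the spread among these arrays alone, and that spread may be technical.

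HDAC7 is a class IIa histone deacetylase, a family with little catalytic activity of its own that is recruited to DNA by transcription factors, above all those of the MEF2 family. It brings corepressor complexes with it. Kinases such as the protein kinases D and the salt-inducible kinases phosphorylate these proteins, after which 14-3-3 proteins hold them in the cytoplasm. In fibroblasts given reprogramming factors, an early step is a mesenchymal-to-epithelial transition, in which matrix, contractile and other mesenchymal genes are turned down and keratins, E-cadherin and other epithelial genes are turned on. The comparison asks how expression differs when HDAC7 is added to the factors, and it is described below gene group by gene group.

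Values are log2 expression values per gene, and a difference of 1 is a 2-fold difference. Array medians lay between 5.68 and 5.76, and a level below its array's median is not shown to be above background, since no detection calls were used here. Arrays of the same group correlated at 0.994 to 0.997 over all genes, and the SKO+Flag pair at day 10 was the least alike (SD of the differences 0.171). Over the 8 arrays the first principal component (46.7% of the variance) separated the days, and the second (24.3%) set the SKO+HDAC7 arrays (-14.47 to -5.05) apart from the SKO+Flag arrays (4.83 to 15.9). On the third (10.5%), SKO+Flag replicate 1 of day 10 stood alone at -15.67. Of 12 fibroblast markers, 10 or 11 lay above the array median in each of the 4 groups compared, and their mean level was 8.74 to 8.83 on the SKO+Flag arrays and 8.60 to 8.84 on the SKO+HDAC7 arrays, against 9.69 and 10.31 on the GFP arrays.

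Hdac7 itself was 6.89 and 6.88 on the SKO+Flag arrays of day 6 and 6.99 and 7.01 on those of day 10, against 11.16 and 11.16 (day 6) and 11.38 and 11.17 (day 10) with HDAC7. The groups were far apart on both days, a difference of 4.28 ± 0.06 (SE, 4 arrays against 4; limma, Benjamini-Hochberg adjusted p = 1.57e-11). Endogenous and added transcripts cannot be told apart in these values. Pou5f1 was 11.99 and 11.77 at day 6 and 11.98 and 12.10 at day 10 with the empty vector, and 12.01 and 12.01 at day 6 and 12.09 and 12.02 at day 10 with HDAC7 (difference 0.07 ± 0.05, adjusted p = 0.453). Klf4 differed by 0.03 ± 0.06 (adjusted p = 0.803; below 0 under median centring, without SKO+Flag replicate 1 of day 6 and without SKO+HDAC7 replicate 1 of day 10). Sox2 lay below the median on all 8 arrays, between 5.04 and 5.37, and differed by -0.08 ± 0.05 (adjusted p = 0.376). At these levels no added Sox2 transcript can be seen. Whether both arms received equal amounts of the SKO factors was not tested. Mef2c, the gene for a main partner of class IIa deacetylases, was 6.81 and 6.75 at day 6 and 6.43 and 6.64 at day 10 without HDAC7. With HDAC7 it was 6.55 and 6.53 at day 6 and 6.31 and 6.48 at day 10 (-0.19 ± 0.07, adjusted p = 0.114). The difference did not pass the test, and the arms were apart at day 6 but overlapped at day 10.

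Among the genes that were lower with HDAC7 were 10 of 18 fibrillar collagen genes (1 other was higher), 8 of 15 genes of cross-linking and elastic fibres, 13 of 23 of adhesive matrix (1 other was higher) and 10 of 18 of smooth muscle contraction. Among those that were higher were 8 of 16 keratins, 11 of 25 interferon-stimulated genes and 12 of 27 DNA replication genes. Averaged over both days, 2171 of 19935 genes (10.9%) passed an adjusted p under 0.05, 963 higher (4.83%) and 1208 lower (6.06%). These shares of all genes are the background for each count of a gene group below that is averaged over both days. Most differences were small: the median size among the genes called was 0.279 and 37 genes differed by at least 1. The sign was the same at both days for 2133 of the 2171, and for 984 of them the 4 SKO+HDAC7 values did not overlap the 4 SKO+Flag values, which held for 1638 of all genes (8.22%). All 8 arrays were above their median for 1655 of the genes called. Centring every array on its median moved the split to 637 higher and 1519 lower, so the balance of directions depends on the scaling. A fit of these 8 arrays alone with day as an additive covariate called 1387 genes, and the count of higher genes was 625 without SKO+HDAC7 replicate 1 of day 6 and 592 without SKO+HDAC7 replicate 1 of day 10.

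**Figure D1:**
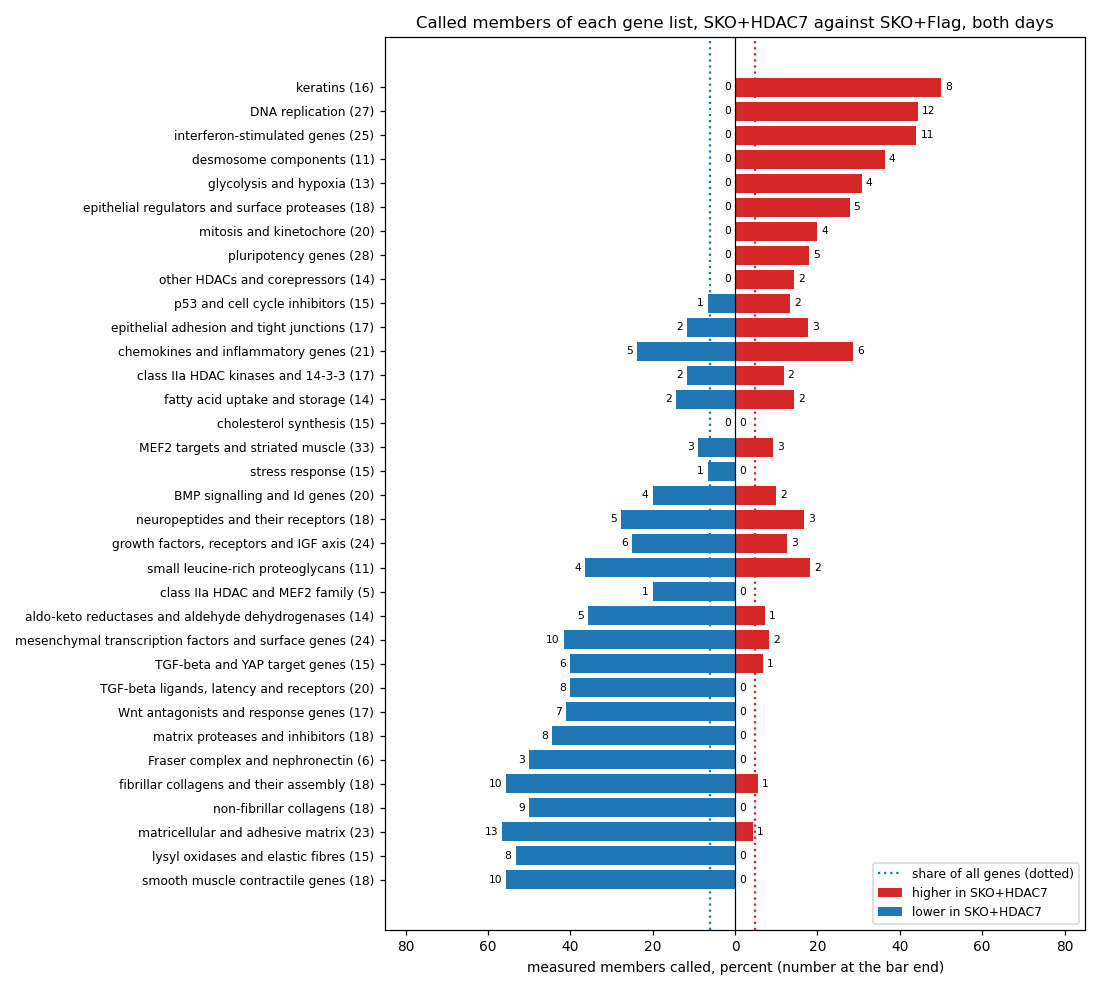
Share of the measured members of each gene list (number in parentheses) that were called higher (right) or lower (left) with HDAC7, averaged over both days; numbers at the bar ends are members called and dotted lines are the shares of all genes. Smooth muscle contractile genes (10 of 18 lower), matricellular and adhesive matrix genes (13 of 23 lower), lysyl oxidase and elastic fibre genes (8 of 15 lower) and fibrillar collagen genes (10 of 18 lower) lie at one end, and keratins (8 of 16 higher) and DNA replication genes (12 of 27 higher) at the other.

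Krt19, a keratin of simple epithelia, rose most after Hdac7 itself. It was 6.49 and 6.46 at day 6 and 7.29 and 7.22 at day 10 without HDAC7, and 7.58 and 7.76 at day 6 and 8.99 and 9.04 at day 10 with it. Every SKO+HDAC7 value lay above every SKO+Flag value, 2.79-fold on average (1.48 ± 0.05, adjusted p = 1.09e-07). Cd34, a surface sialomucin of stromal, endothelial and blood progenitor cells, was 8.22 and 8.03 at day 6 and 9.63 and 9.62 at day 10 without HDAC7, and 9.43 and 9.64 at day 6 and 10.57 and 10.78 at day 10 with it (2.35-fold, 1.23 ± 0.07, adjusted p = 1.06e-06). It was higher at day 10 than at day 6 in both arms, so its day 10 SKO+Flag values overlapped the day 6 SKO+HDAC7 values, but the arms did not overlap within a day. Lpl is the lipoprotein lipase that frees fatty acids from circulating triglycerides. It was 7.45 and 7.72 at day 6 and 7.07 and 7.36 at day 10 without HDAC7 and 8.96 and 8.78 at day 6 and 8.14 and 8.26 at day 10 with it (2.2-fold, 1.14 ± 0.08, adjusted p = 9.58e-06), with no overlap between the arms.

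The other genes that rose most had quite different roles. They were Esm1, a proteoglycan secreted by endothelium (1.14 ± 0.10), Npy, the precursor of neuropeptide Y (1.12 ± 0.07), its receptor gene Npy2r (1.10 ± 0.09), Nefl, the light neurofilament chain (1.09 ± 0.09), Klk10, a kallikrein-related secreted protease (1.07 ± 0.05), Nppb, the precursor of B-type natriuretic peptide (0.92 ± 0.08), Urah, a hydrolase of urate breakdown (0.90 ± 0.07), and Col3a1, a fibrillar collagen (0.88 ± 0.05). For all 8 of them the arms did not overlap on any array, and adjusted p-values ran from 4.06e-07 (Klk10) to 5.71e-05 (Nppb). Npy was 6.17 and 6.07 at day 6 and 6.94 and 7.24 at day 10 without HDAC7 and 7.32 and 7.47 at day 6 and 8.06 and 8.06 at day 10 with it. Its receptor gene Npy2r was 5.91 and 5.84 at day 6 and 5.68 and 5.69 at day 10 without HDAC7, close to the array medians, and 7.10 and 6.83 at day 6 and 6.63 and 6.98 at day 10 with it. Both were lower still with GFP alone (Npy 5.64 and 5.81; Npy2r 4.92 and 4.53).

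Akr1c14, an aldo-keto reductase of steroid metabolism, fell most. It was 8.86 and 8.84 at day 6 and 7.63 and 8.18 at day 10 without HDAC7, and 6.97 and 6.85 at day 6 and 6.51 and 6.74 at day 10 with it (3.05-fold lower, -1.61 ± 0.10, adjusted p = 3.24e-06). Frem2, a basement membrane protein of the Fraser complex, was 7.17 and 7.20 at day 6 and 8.50 and 8.71 at day 10 without HDAC7, and 5.83 and 5.95 at day 6 and 6.82 and 6.93 at day 10 with it (2.85-fold lower, -1.51 ± 0.07, adjusted p = 3.65e-07). All SKO+HDAC7 values of both genes lay below all SKO+Flag values. Vcam1, an adhesion molecule for leukocytes, was 10.77 and 10.65 at day 6 and 10.47 and 10.53 at day 10 without HDAC7, and 9.88 and 9.72 at day 6 and 8.83 and 8.86 at day 10 with it (-1.28 ± 0.05, adjusted p = 2.24e-07). The day 10 SKO+HDAC7 values of Vcam1 were the lowest of the 8 and close to the GFP array of that day (8.96).

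The next largest falls were those of Col8a1, a short-chain collagen (-1.27 ± 0.08), Mgp, matrix Gla protein, an inhibitor of calcification (-1.24 ± 0.06), Mctp1, a calcium-binding membrane protein (-1.23 ± 0.07), Ctsc, a lysosomal dipeptidyl peptidase (-1.21 ± 0.06), Cd36, a fatty acid and lipoprotein receptor (-1.17 ± 0.14), Myl9, the regulatory light chain of smooth muscle and non-muscle myosin (-1.17 ± 0.06), Tgm2, tissue transglutaminase, a cross-linker of matrix proteins (-1.16 ± 0.05), Btbd3 (-1.15 ± 0.05) and Atxn1 (-1.14 ± 0.09). Adjusted p-values ran from 3.06e-07 (Tgm2) to 0.000291 (Cd36). Tgm2 was 9.65 and 9.56 at day 6 and 9.83 and 9.83 at day 10 without HDAC7, and 8.52 and 8.49 at day 6 and 8.57 and 8.64 at day 10 with it. The 4 values of each arm lay close together and the arms did not overlap.

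**Figure D2:**
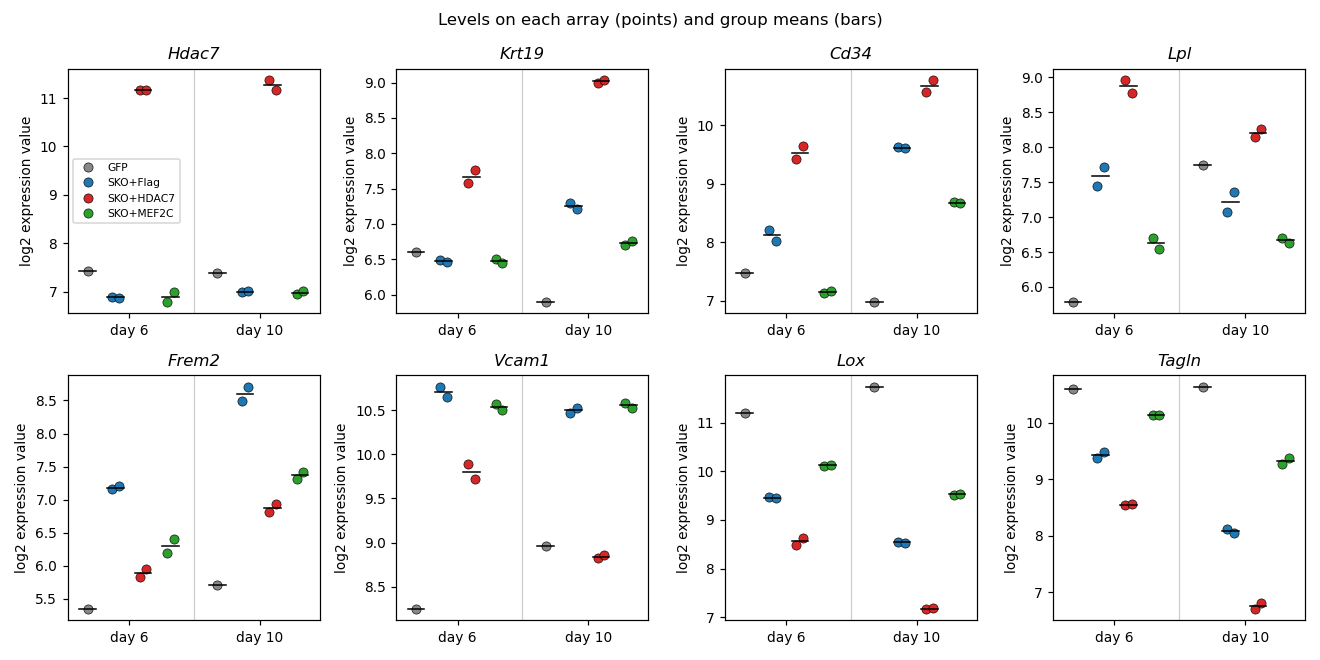
Log2 expression values of Hdac7 and 7 other genes on each of the 14 arrays (points), by day and vector, with group means as bars; GFP has 1 array a day. Krt19, Cd34 and Lpl were higher and Frem2, Vcam1, Lox and Tagln lower in SKO+HDAC7 than in SKO+Flag at both days, and SKO+MEF2C lay above SKO+Flag for Lox and Tagln.

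Among collagens of the large fibres, the genes that passed were lower, with 1 exception. Of 18 measured genes for fibrillar collagens and the enzymes that assemble them, 10 were lower and 1 higher (all genes 6.06% and 4.83%), and the list's median difference was -0.237 against 0.018 over all genes. Col11a1, a minor chain that starts fibrils, was 8.55 and 8.52 at day 6 and 8.35 and 8.42 at day 10 without HDAC7 and 7.90 and 7.86 at day 6 and 7.18 and 7.07 at day 10 with it (-0.96 ± 0.05, adjusted p = 6.06e-07). The arms did not overlap, and the day 10 SKO+HDAC7 values were the lowest. Col5a2, a chain of type V collagen that regulates fibril width, differed by -0.64 ± 0.06 and Col1a2, a chain of type I collagen, by -0.46 ± 0.05. Plod2, the lysyl hydroxylase that prepares collagen cross-links, differed by -0.54 ± 0.07. Col3a1, the chain of type III collagen, went the other way: it was 8.73 and 8.87 at day 6 and 9.21 and 9.14 at day 10 without HDAC7, and 9.48 and 9.50 at day 6 and 10.29 and 10.22 at day 10 with it. All 4 SKO+HDAC7 values lay above the 4 SKO+Flag values (1.84-fold, adjusted p = 2.44e-06), yet below the GFP arrays (10.67 and 11.80).

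Of 18 measured non-fibrillar collagen genes, 9 were lower and the other 9 did not pass (median -0.197). Col8a1 was 9.85 and 9.76 at day 6 and 9.35 and 9.66 at day 10 without HDAC7, and 8.92 and 8.91 at day 6 and 7.74 and 7.96 at day 10 with it (2.41-fold lower, adjusted p = 3.26e-06). Col12a1, a fibril-associated collagen, differed by -0.88 ± 0.05, Col4a2, a basement membrane chain, by -0.67 ± 0.06, its partner Col4a1 by -0.53 ± 0.05, and Col6a3, a chain of the microfibrillar type VI collagen, by -0.61 ± 0.05. Adjusted p for these ran from 1.73e-06 (Col12a1) to 8.78e-05 (Col4a1).

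Of 15 measured genes of cross-linking enzymes and elastic fibres, 8 were lower and the other 7 did not pass (median -0.242). Lox, the enzyme that cross-links collagen and elastin, was 9.47 and 9.44 at day 6 and 8.55 and 8.52 at day 10 without HDAC7, and 8.49 and 8.63 at day 6 and 7.17 and 7.18 at day 10 with it. At each day both SKO+HDAC7 values were lower, with differences of -0.90 ± 0.06 at day 6 and -1.36 ± 0.06 at day 10, and the mean difference was -1.13 ± 0.04 (2.19-fold, adjusted p = 2.24e-07). Lox was higher on the GFP arrays (11.19 and 11.74), so SKO+HDAC7 stood further from GFP than SKO+Flag did. Fbn2, a microfibril protein on which elastin is deposited, differed by -1.003 ± 0.04, Fbln5, which guides elastic fibre assembly, by -0.85 ± 0.04, Eln, elastin itself, by -0.68 ± 0.09, and Efemp1, a fibulin, by -0.66 ± 0.04.

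The small leucine-rich proteoglycans, which coat collagen fibrils, were split: 4 of 11 measured were lower and 2 higher (median 0.0057; 1 higher in 6 of the 8 fits that left out 1 array, all but those without SKO+Flag replicate 2 of either day). Bgn, biglycan, was 10.42 and 10.28 at day 6 and 10.26 and 10.27 at day 10 without HDAC7, and 9.82 and 9.90 at day 6 and 9.01 and 8.95 at day 10 with it (-0.89 ± 0.05, adjusted p = 1.06e-06). Fmod, fibromodulin, differed by -0.61 ± 0.07, and Prelp by -0.56 ± 0.07. Dcn, decorin, rose instead: it was 8.51 and 8.50 at day 6 and 8.85 and 9.03 at day 10 without HDAC7 and 8.95 and 9.04 at day 6 and 9.36 and 9.50 at day 10 with it (0.49 ± 0.07, adjusted p = 0.00156). Decorin was higher with HDAC7 at each day, although its day 10 SKO+Flag values overlapped the day 6 SKO+HDAC7 values. Lum, lumican, differed by 0.35 ± 0.10 (adjusted p = 0.0458), close to the threshold.

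Of 23 matricellular and adhesive matrix genes, 13 were lower and 1 higher (median -0.218). Mgp was 9.38 and 9.36 at day 6 and 9.99 and 9.95 at day 10 without HDAC7, and 8.39 and 8.69 at day 6 and 8.37 and 8.27 at day 10 with it (2.36-fold lower, adjusted p = 8.92e-07). Thbs1, thrombospondin 1, which can release TGF-beta from its latent form, was 12.72 and 12.68 at day 6 and 12.10 and 12.13 at day 10 without HDAC7, and 12.21 and 12.24 at day 6 and 10.88 and 10.83 at day 10 with it (-0.87 ± 0.04, adjusted p = 3.86e-07). Within each day the arms of both genes were apart. Postn, periostin, was more variable, at 8.45 and 8.38 at day 6 and 7.45 and 8.16 at day 10 without HDAC7 and 7.79 and 7.90 at day 6 and 6.75 and 7.04 at day 10 with it (-0.74 ± 0.13, adjusted p = 0.00376). Tnc, tenascin C, differed by -0.41 ± 0.05. The laminin chain gene Lama1, which serves basement membranes of early embryos and epithelia, was the member that rose (0.44 ± 0.05, adjusted p = 0.000338). Among 18 matrix proteases and their inhibitors, 8 were lower, led by Adamts1 (-0.57 ± 0.04), a protease of proteoglycans, and the other 10 did not pass.

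**Figure D3:**
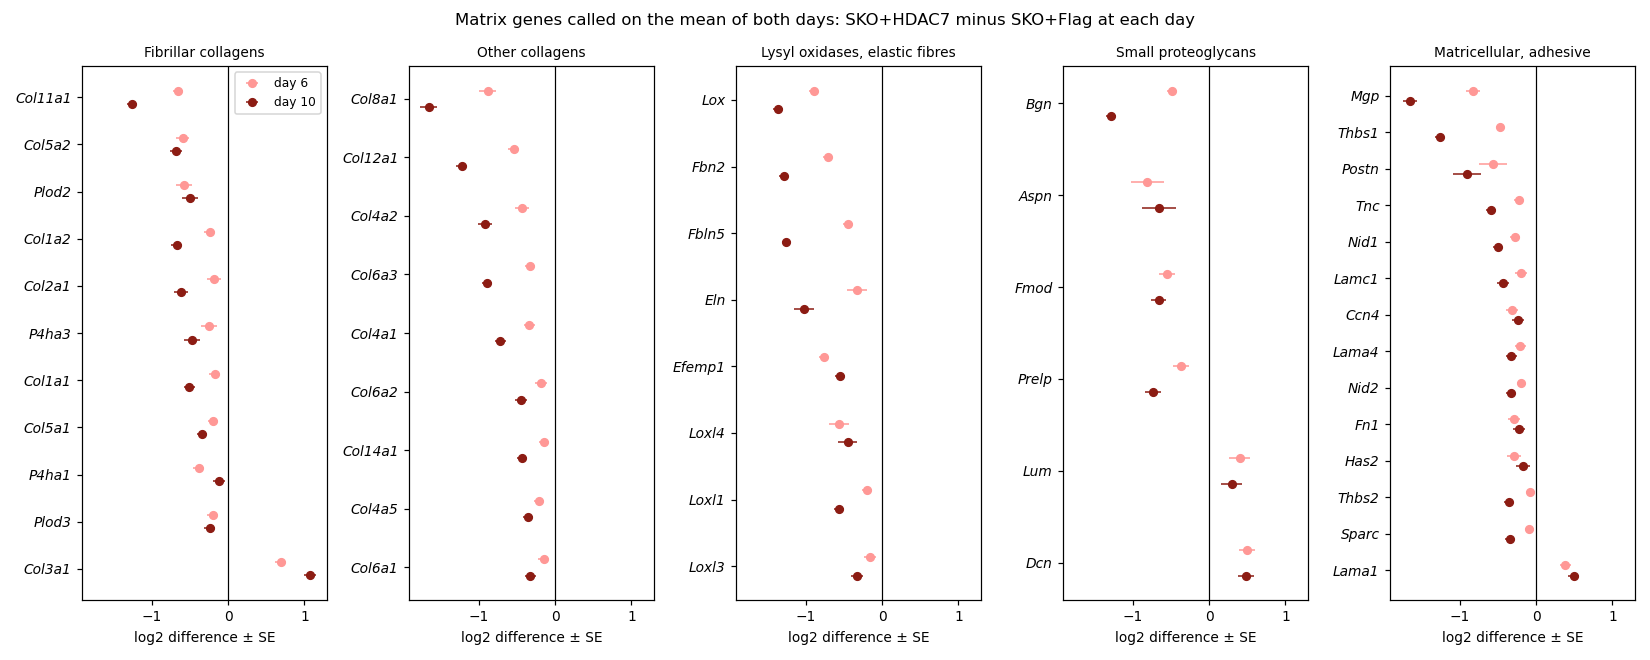
Differences between SKO+HDAC7 and SKO+Flag (log2, ± SE from the fit) at day 6 (pale) and day 10 (dark) for the matrix genes called on the mean of both days, grouped by list. Col3a1, Lum, Dcn and Lama1 lie to the right of 0 and all other genes shown to the left; Bgn, Thbs1, Mgp and Fbln5 lie further left at day 10 than at day 6.

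Of 18 measured genes of smooth muscle and myofibroblast contraction, 10 were lower (all genes 6.06%), the other 8 did not pass and the median difference was -0.295. Transcription of many of these genes is driven by serum response factor, which binds the CArG box. Promoter sequences from RefSeq (GRCm38.p6, 250 bases before to 50 after the start of each gene) were found for 15 of the 18 genes. The box was searched on both strands as CCWWWWWWGG, where W is A or T, so variants of this sequence were not counted. A match was found for 3: Myl9, Cnn2 and Vcl. All 3 genes were called lower, as were 5 genes with a window and no such match, and 1.63% of all 32851 windows hold the motif. They are shown because they are the list's promoters with the motif, chosen after their values were seen; a match is a description and not a binding site. The 250 bases before each start follow, 5′ to 3′ on the gene's strand, with the CArG box in capitals, for Myl9 (chr2:156775214-156775463 on the plus strand), Cnn2 (chr10:79988350-79988599 on the plus strand) and Vcl (chr14:20929148-20929397 on the plus strand).
Myl9: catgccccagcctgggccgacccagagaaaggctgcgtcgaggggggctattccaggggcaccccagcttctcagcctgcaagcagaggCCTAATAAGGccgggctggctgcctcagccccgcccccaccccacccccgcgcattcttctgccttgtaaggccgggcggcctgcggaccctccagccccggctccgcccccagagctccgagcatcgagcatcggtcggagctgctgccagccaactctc
Cnn2: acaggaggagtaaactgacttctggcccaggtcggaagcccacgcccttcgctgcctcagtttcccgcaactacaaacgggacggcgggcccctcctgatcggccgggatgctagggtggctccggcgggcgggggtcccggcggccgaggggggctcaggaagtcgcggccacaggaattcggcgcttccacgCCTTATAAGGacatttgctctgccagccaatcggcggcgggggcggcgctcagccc
Vcl: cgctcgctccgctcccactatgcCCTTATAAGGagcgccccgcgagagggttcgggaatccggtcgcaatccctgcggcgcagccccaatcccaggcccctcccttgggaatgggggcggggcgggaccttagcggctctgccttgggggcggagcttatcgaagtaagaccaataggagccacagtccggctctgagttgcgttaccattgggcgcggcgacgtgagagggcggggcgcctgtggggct
The first base of the motif lies 161 bases before the start in Myl9, 56 in Cnn2 and 227 in Vcl.

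Myl9 was 8.64 and 8.74 at day 6 and 7.55 and 7.67 at day 10 without HDAC7, and 7.50 and 7.67 at day 6 and 6.38 and 6.38 at day 10 with it (2.24-fold lower, adjusted p = 1.28e-06). Tagln, transgelin, an actin-binding protein of smooth muscle, was 9.38 and 9.48 at day 6 and 8.12 and 8.05 at day 10 without HDAC7, and 8.54 and 8.56 at day 6 and 6.71 and 6.82 at day 10 with it (2.15-fold lower, -1.10 ± 0.05, adjusted p = 3.65e-07). Acta2, smooth muscle alpha-actin, the usual myofibroblast marker, was 11.54 and 11.52 at day 6 and 10.54 and 10.58 at day 10 without HDAC7, and 10.86 and 10.97 at day 6 and 9.64 and 9.71 at day 10 with it (-0.75 ± 0.04, adjusted p = 2.38e-06). All 3 were lower at day 10 than at day 6 in both arms, and at each day both SKO+HDAC7 values lay below both SKO+Flag values. Actg2, smooth muscle gamma-actin, differed by -0.67 ± 0.05, and Cnn1, calponin 1, by -0.66 ± 0.06. Vcl, vinculin, which links integrins to actin, differed by -0.47 ± 0.05, and Cnn2, calponin 2, by -0.23 ± 0.04 (adjusted p = 0.00448). The GFP arrays had the highest levels of Myl9, Tagln and Acta2 (10.59 and 10.64 for Tagln).

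TGF-beta signalling drives matrix and myofibroblast genes. Of 20 genes for its ligands, latency proteins and receptors, 8 were lower and the other 12 did not pass (median -0.114; 5 lower without SKO+HDAC7 replicate 2 of day 6). The ligand Tgfb2 was 6.88 and 6.71 at day 6 and 6.87 and 7.02 at day 10 without HDAC7 and 6.15 and 6.12 at day 6 and 5.98 and 5.84 at day 10 with it, with no overlap (-0.85 ± 0.07, adjusted p = 3.95e-05). Ltbp2, a protein of the latent TGF-beta binding family, differed by -0.78 ± 0.06, the inhibitory Smad7 by -0.42 ± 0.05, and Tgfb3 by -0.36 ± 0.05. The type I receptor Tgfbr1 (-0.09 ± 0.06, adjusted p = 0.4) and Tgfb1 (-0.13 ± 0.06, adjusted p = 0.174) did not pass. Among 15 target genes of TGF-beta and of the YAP coactivator, 6 were lower and 1 higher. Ccn2, connective tissue growth factor, was 11.60 and 11.67 at day 6 and 11.43 and 11.43 at day 10 without HDAC7, and 10.86 and 10.78 at day 6 and 10.51 and 10.38 at day 10 with it (1.87-fold lower, adjusted p = 9.93e-07), and all its SKO+HDAC7 values lay below all its SKO+Flag values. Axl, a receptor tyrosine kinase, was the member that rose (0.26 ± 0.05).

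In the related BMP pathway 4 of 20 measured genes were lower and 2 higher (all genes 6.06% and 4.83%). The ligand Bmp2 was 6.13 and 6.04 at day 6 and 6.01 and 6.06 at day 10 without HDAC7, above the array medians, and 5.34 and 5.28 at day 6 and 5.34 and 5.05 at day 10 with it, below them (-0.81 ± 0.07, adjusted p = 2.22e-05). The ligand Bmp6 moved the opposite way, from 6.68 and 6.56 at day 6 and 6.38 and 6.36 at day 10 to 7.03 and 7.11 at day 6 and 6.79 and 6.89 at day 10 (0.46 ± 0.05, adjusted p = 0.000137). Neither gene's arms overlapped. Id3, a BMP-induced inhibitor of bHLH factors, differed by -0.44 ± 0.08. Of 17 Wnt antagonists and response genes, 7 were lower and the other 10 did not pass. They were led by Lgr5, a receptor for R-spondins (-1.03 ± 0.07), the antagonist Dkk2 (-0.89 ± 0.07) and the secreted antagonist Sfrp1 (-0.55 ± 0.06).

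Of 24 measured mesenchymal transcription factors and surface genes, 10 were lower and 2 higher (median -0.105). The count of lower genes was 5 or 6 in 6 of the 8 fits that left out 1 array, all but those without SKO+Flag replicate 1 of day 10 or SKO+HDAC7 replicate 2 of day 6. In 6 fits 1 gene was higher, all but those without SKO+Flag replicate 1 of day 6 or replicate 2 of day 10. Nt5e, the ectonucleotidase CD73, differed by -0.51 ± 0.06, Pdgfrb, a receptor for platelet-derived growth factor, by -0.48 ± 0.05 and Thy1, a fibroblast surface antigen, by -0.37 ± 0.05. Cdh2, N-cadherin, rose: it was 8.25 and 8.24 at day 6 and 7.42 and 7.52 at day 10 without HDAC7, and 8.65 and 8.61 at day 6 and 8.07 and 8.01 at day 10 with it (0.48 ± 0.04, adjusted p = 6.28e-05). At each day N-cadherin was higher on both SKO+HDAC7 arrays. Among the 12 fibroblast markers, all of which are also on other lists, 6 were lower and 4 higher. The count of higher ones was 2 in 6 of the 8 fits that left out 1 array, all but those without SKO+Flag replicate 1 of day 6 or replicate 2 of day 10. In these bulk samples fewer cells of a type and less RNA per cell cannot be told apart.

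On the epithelial side, 8 of 16 measured keratin genes rose and the other 8 did not pass (all genes 4.83%; median 0.23). The count was 5 without SKO+Flag replicate 1 of day 6, without SKO+HDAC7 replicate 1 of day 6 or without SKO+HDAC7 replicate 1 of day 10. Krt14, a keratin of basal epidermis, was 5.83 and 5.78 at day 6 and 6.53 and 6.41 at day 10 without HDAC7, and 6.32 and 6.53 at day 6 and 7.26 and 7.35 at day 10 with it (1.66-fold, 0.73 ± 0.05, adjusted p = 1.22e-05). Krt16, a keratin of activated epidermis, was 4.99 and 4.81 at day 6 and 5.75 and 5.75 at day 10 without HDAC7, and 5.60 and 5.68 at day 6 and 6.34 and 6.44 at day 10 with it (0.69 ± 0.06, adjusted p = 2.22e-05). Within each day both genes were higher on both SKO+HDAC7 arrays, and their SKO+Flag levels were higher at day 10 than at day 6. Krt6a differed by 0.62 ± 0.07 and Krt13 by 0.58 ± 0.06. Krt18, the usual partner of Krt8 in simple epithelia, lay mostly below the array medians and did not pass (0.25 ± 0.09, adjusted p = 0.089). Krt5, the usual partner of Krt14, lay below the median on all 8 arrays and did not pass either (0.17 ± 0.07, adjusted p = 0.187). Its difference was 0.25 without SKO+Flag replicate 1 of day 10 (adjusted p = 0.0312) and 0.09 without replicate 2 of that day (0.472).

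Junction genes did not move as one group. Of 17 genes of epithelial adhesion and tight junctions, 3 were higher and 2 lower (5 higher without SKO+Flag replicate 2 of day 6). Cdh1, E-cadherin, the defining adhesion molecule of epithelia, was 6.13 and 6.14 at day 6 and 6.61 and 6.76 at day 10 without HDAC7, and 6.37 and 6.32 at day 6 and 7.79 and 7.41 at day 10 with it (0.56 ± 0.08, adjusted p = 0.00134). Epcam, an epithelial adhesion molecule, was 5.84 and 5.76 at day 6 and 8.08 and 8.24 at day 10 without HDAC7, and 6.04 and 5.999 at day 6 and 9.02 and 8.93 at day 10 with it (0.52 ± 0.07, adjusted p = 0.000618). Both were higher at each day on both SKO+HDAC7 arrays, by 0.21 ± 0.12 and 0.22 ± 0.10 at day 6 (not past the test) and by 0.91 ± 0.12 and 0.82 ± 0.10 at day 10. Tjp1, the tight junction scaffold ZO-1, fell from 9.44 and 9.46 at day 6 and 9.41 and 9.69 at day 10 to 8.92 and 8.86 at day 6 and 9.10 and 8.98 at day 10 (-0.53 ± 0.06, adjusted p = 0.00022). F11r, the junctional adhesion molecule A, also fell (-0.46 ± 0.05, adjusted p = 9.76e-05).

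Of 11 desmosome genes, 4 were higher and the other 7 did not pass (2 higher without SKO+Flag replicate 2 of day 6). Pkp1, a plakophilin of stratified epithelia, was 6.31 and 6.35 at day 6 and 6.97 and 6.93 at day 10 without HDAC7 and 7.34 and 7.26 at day 6 and 7.74 and 7.68 at day 10 with it, with no overlap (1.82-fold, adjusted p = 1.18e-06). Pkp2 differed by 0.37 ± 0.07. Among 18 epithelial regulators and surface proteases, 5 were higher and the other 13 did not pass (3 higher without SKO+Flag replicate 1 of day 6 or without SKO+HDAC7 replicate 1 of day 10). Ehf, an epithelial ETS transcription factor, was 6.37 and 6.36 at day 6 and 6.54 and 6.79 at day 10 without HDAC7, and 6.62 and 6.64 at day 6 and 7.83 and 8.08 at day 10 with it (0.78 ± 0.07, adjusted p = 6.28e-05). The arms were apart at each day, and the day 10 SKO+HDAC7 values were by far the highest. The membrane serine protease genes Prss8 (0.35 ± 0.05) and St14 (0.32 ± 0.07), which act in 1 epithelial cascade, also rose.

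A keratinocyte marker list, 9 of whose 13 genes are also on other lists used here, had 7 members higher and 6 not past the test, and its mean level was 5.71 to 6.03 on the SKO+Flag arrays and 6.01 to 6.40 on the SKO+HDAC7 arrays. Trp63, the master regulator of stratified epithelium, did not pass (-0.07 ± 0.04, adjusted p = 0.36) and lay at 5.50 to 5.69 on the 8 arrays, above the median on 1 of them. The part of keratinocyte-like cells in these differences was not tested.

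**Figure D4:**
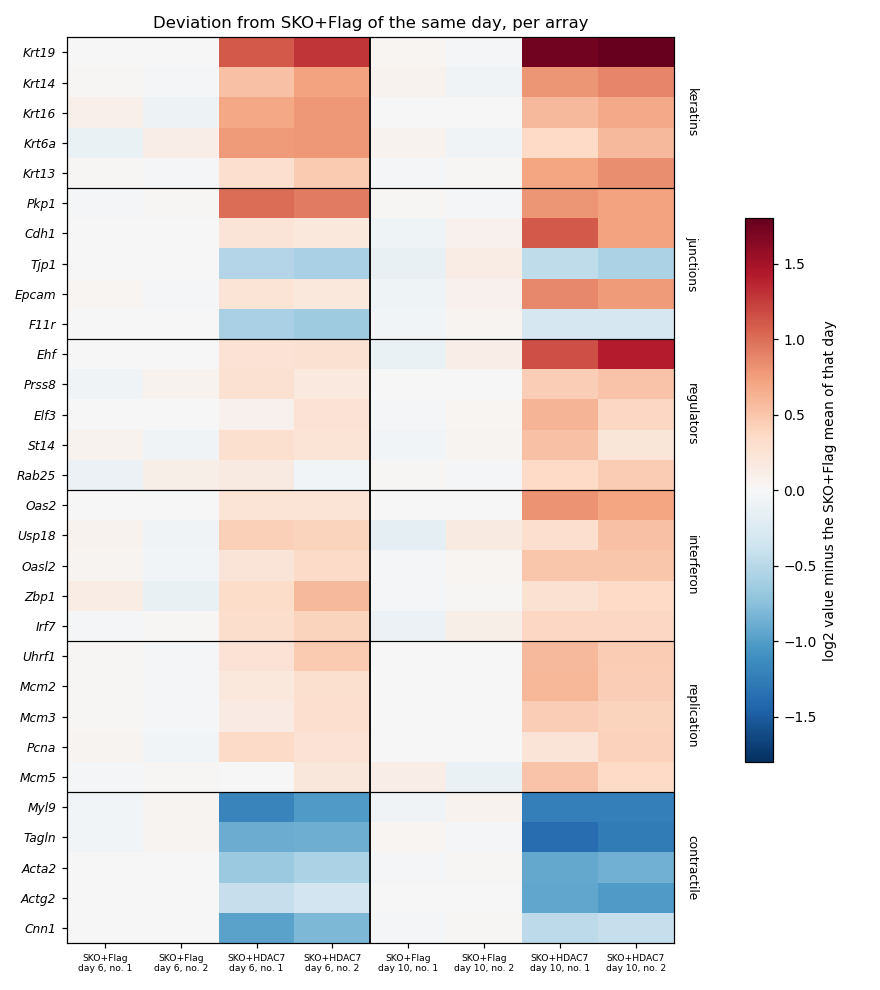
Log2 value on each of the 8 arrays minus the SKO+Flag mean of the same day, for genes of 6 groups (rows); red is above and blue below that mean. Keratins, Pkp1, interferon-stimulated and replication genes (other than Mcm5 at day 6) are red and contractile genes, Tjp1 and F11r blue on the SKO+HDAC7 arrays, and Cdh1, Epcam and Ehf are redder at day 10 than at day 6.

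Of 25 measured interferon-stimulated genes, which encode antiviral proteins, 11 rose and the other 14 did not pass (all genes 4.83%; median 0.204). The count was 6 without SKO+HDAC7 replicate 1 of day 6 and 7 without either SKO+HDAC7 array of day 10. The interferon-stimulated response element is a motif of many such genes. Its core was searched as 2 copies of GAAA with any 2 bases between them, on both strands, counting overlapping matches. RefSeq promoter windows were found for 16 of the 25 genes; 8 windows hold a match, against 3.44% of all windows, and of the 7 called genes with a window 4 have a match (Bst2, Ifit1, Oas3 and Stat2). Ifih1, Ifit3, Oas1a and Rsad2 also have a match and were not called. For Oas1a this holds for the probe set used, while a probe set shared with Oas1g was called higher (0.665 ± 0.096). Ifit1 and Bst2 were chosen for display after their values were seen. Each holds 2 matches, as do Ifit3 and Oas1a, which were not called on the probe sets used. The 250 bases before the start are given with the matches in capitals for Ifit1 (chr19:34640639-34640888 on the plus strand) and Bst2 (chr8:71537473-71537722 on the minus strand, where the matches overlap); as above, a match is a description.
Ifit1: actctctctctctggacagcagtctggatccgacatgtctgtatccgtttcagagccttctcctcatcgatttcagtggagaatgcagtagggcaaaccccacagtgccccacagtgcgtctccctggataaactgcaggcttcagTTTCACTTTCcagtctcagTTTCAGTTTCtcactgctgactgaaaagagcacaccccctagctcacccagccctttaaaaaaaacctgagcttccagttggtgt
Bst2: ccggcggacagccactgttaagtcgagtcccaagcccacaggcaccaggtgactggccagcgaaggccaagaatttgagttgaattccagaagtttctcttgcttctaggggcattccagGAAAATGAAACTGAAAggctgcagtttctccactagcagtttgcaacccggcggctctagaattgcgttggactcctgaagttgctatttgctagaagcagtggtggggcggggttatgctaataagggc
Matches start 104 and 85 bases before the start in Ifit1, where they lie on the opposite strand, and 130 and 124 bases before it in Bst2.

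Oas2, a sensor of double-stranded RNA, was 5.75 and 5.77 at day 6 and 6.71 and 6.69 at day 10 without HDAC7, and 6.005 and 6.002 at day 6 and 7.51 and 7.41 at day 10 with it (0.51 ± 0.04, adjusted p = 3.95e-05). Irf7, the transcription factor that amplifies interferon production, was 6.60 and 6.63 at day 6 and 6.99 and 7.21 at day 10 without HDAC7, and 6.93 and 7.02 at day 6 and 7.46 and 7.47 at day 10 with it (0.37 ± 0.05, adjusted p = 0.00104). Both were higher with HDAC7 within each day, and higher at day 10 than at day 6 in both arms. Usp18, which removes the ubiquitin-like protein ISG15 from its targets, differed by 0.41 ± 0.08, Oasl2 by 0.39 ± 0.06 and Zbp1, a sensor of Z-form nucleic acids, by 0.39 ± 0.08. Ifit1 differed by 0.27 ± 0.07 (adjusted p = 0.0369) and Bst2, tetherin, by 0.25 ± 0.06 (adjusted p = 0.0269). Probe sets that list several genes were left out of the interferon-stimulated counts. Among those called, that of Oas1a and Oas1g was higher (0.665 ± 0.096). Those listing Gvin1, an interferon-induced GTPase gene, with other genes were lower (-0.862 ± 0.141, -0.725 ± 0.124 and -0.629 ± 0.151).

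Of 21 chemokines and inflammatory genes, 6 were higher and 5 lower (3 higher without SKO+Flag replicate 1 of day 6). Ccl2, a monocyte chemoattractant, was 7.53 and 7.71 at day 6 and 7.69 and 7.82 at day 10 without HDAC7, and 8.25 and 8.43 at day 6 and 8.75 and 8.81 at day 10 with it (1.83-fold, 0.87 ± 0.06, adjusted p = 5.94e-06), with no overlap. F3, tissue factor, which starts coagulation, was 8.41 and 8.38 at day 6 and 7.24 and 7.42 at day 10 without HDAC7, and 7.21 and 7.28 at day 6 and 6.31 and 6.15 at day 10 with it (2.18-fold lower, -1.13 ± 0.06, adjusted p = 8.08e-07). Il1rn, the interleukin 1 receptor antagonist, differed by -0.59 ± 0.04 and Ccl7, another monocyte chemokine, by 0.36 ± 0.04.

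Of 27 measured genes of DNA replication, 12 rose and the other 15 did not pass (median 0.187; 7 higher without SKO+Flag replicate 1 of day 6). Uhrf1, which guides maintenance DNA methylation behind the replication fork, was 8.23 and 8.20 at day 6 and 8.24 and 8.22 at day 10 without HDAC7, and 8.48 and 8.69 at day 6 and 8.81 and 8.69 at day 10 with it (1.36-fold, 0.44 ± 0.05, adjusted p = 0.000351), with no overlap. Mcm2 (0.38 ± 0.05) and Mcm3 (0.32 ± 0.05), subunits of the replicative helicase, and Pcna, the polymerase clamp (0.31 ± 0.05), also rose. Of 20 mitosis and kinetochore genes, 4 were higher and the other 16 did not pass, and without SKO+Flag replicate 2 of day 10 the count was 10. The proliferation marker Mki67 was 8.72 and 8.53 at day 6 and 7.93 and 8.65 at day 10 without HDAC7 and 8.73 and 8.83 at day 6 and 8.87 and 8.81 at day 10 with it. The arms were narrowly apart, the day 10 SKO+Flag pair was wide, and the difference did not pass (0.35 ± 0.12, adjusted p = 0.0959). It was 0.53 without SKO+Flag replicate 2 of day 10 (adjusted p = 0.000417) and 0.17 without replicate 1 of that day (0.101). Among 15 p53 targets and cell cycle inhibitors, the kinase gene Plk2 (0.51 ± 0.06) and the inhibitor gene Cdkn1c (0.39 ± 0.05) were higher and Cdkn2b, the inhibitor p15, was lower (-0.37 ± 0.04).

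Of 28 measured pluripotency genes, 5 were higher and the other 23 did not pass (median 0.08). Nr0b1, the nuclear receptor DAX1 of embryonic stem cells, was 4.77 and 4.87 at day 6 and 5.57 and 5.46 at day 10 without HDAC7, and 4.95 and 4.94 at day 6 and 6.20 and 6.31 at day 10 with it (0.43 ± 0.06, adjusted p = 0.00139). It was above the array median only on the 2 SKO+HDAC7 arrays of day 10. Sall1, a zinc finger factor, differed by 0.43 ± 0.07. Nanog, a core pluripotency factor, lay below the median on all 8 arrays and did not pass (0.13 ± 0.06, adjusted p = 0.217). Its difference was 0.19 without SKO+Flag replicate 1 of day 10 (adjusted p = 0.0352) and 0.06 without replicate 2 of that day (0.546). Of 8 stem cell markers, 7 lay below the median on all 8 arrays.

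Class IIa deacetylases, their partners and their kinases were measured as the family of the added factor. Hdac5, a close relative of HDAC7, was 7.11 and 7.24 at day 6 and 7.23 and 7.31 at day 10 without HDAC7, and 6.53 and 6.78 at day 6 and 6.55 and 6.60 at day 10 with it (1.52-fold lower, -0.61 ± 0.06, adjusted p = 0.000123). All its SKO+HDAC7 values lay below all its SKO+Flag values. Hdac4 (0.01 ± 0.05, adjusted p = 0.957), Hdac9 (-0.11 ± 0.05, adjusted p = 0.238), Mef2a (0.19 ± 0.07, adjusted p = 0.108) and Mef2d (-0.06 ± 0.07, adjusted p = 0.625) did not pass. Of 14 other deacetylases and corepressor subunits, Hdac6, the tubulin deacetylase (0.45 ± 0.04), and Gps2, a subunit of the NCoR complex (0.22 ± 0.05), were higher, though the call of Gps2 was lost without SKO+Flag replicate 1 of day 6 or either replicate 2 of SKO+HDAC7. Of 17 kinases and 14-3-3 proteins that act on class IIa deacetylases, 2 were higher and 2 lower (all genes 4.83% and 6.06%). The lower ones included Camk2d, a calcium/calmodulin-dependent kinase (-0.37 ± 0.05). The 2 higher members passed in only 1 of the 8 fits that left out an array, that without SKO+HDAC7 replicate 2 of day 10, and 4 were lower without SKO+Flag replicate 2 of day 6.

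Of 33 MEF2 targets and striated muscle genes, 3 were higher and 3 lower (all genes 4.83% and 6.06%; median 0.06). Tnnt2, cardiac troponin T, was 6.23 and 6.29 at day 6 and 7.03 and 6.85 at day 10 without HDAC7, and 5.83 and 6.16 at day 6 and 6.19 and 6.18 at day 10 with it (-0.52 ± 0.07, adjusted p = 0.00127). Nr4a1, an orphan nuclear receptor gene under MEF2 control in thymocytes, differed by -0.28 ± 0.04. Jun (0.48 ± 0.07), the AP-1 subunit, and Nppb rose, as did Myod1, the muscle determination factor (0.33 ± 0.06), whose levels lay at 5.32 to 5.90 around the array medians.

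Of 14 genes of lipid uptake and storage, 2 were higher and 2 lower (all genes 4.83% and 6.06%). The list's median difference was -0.0252 against 0.018 over all genes. Lpl rose, as did Plin2, the coat protein of lipid droplets, from 9.58 and 9.41 at day 6 and 9.02 and 9.22 at day 10 to 10.17 and 10.09 at day 6 and 9.79 and 9.84 at day 10 (0.66 ± 0.06, adjusted p = 4.63e-05). Cd36 fell from 6.88 and 6.72 at day 6 and 7.02 and 7.64 at day 10 to 5.90 and 5.96 at day 6 and 5.58 and 6.15 at day 10 (-1.17 ± 0.14, adjusted p = 0.000291), and Fabp3, a cytosolic fatty acid carrier, differed by -0.39 ± 0.07. Of 13 glycolysis and hypoxia genes, 4 were higher (2 without SKO+Flag replicate 1 of day 6, SKO+Flag replicate 2 of day 10, SKO+HDAC7 replicate 2 of day 6 or SKO+HDAC7 replicate 2 of day 10), led by Slc2a1, the glucose transporter GLUT1 (0.61 ± 0.05), and Aldoa, an aldolase (0.34 ± 0.05). The median difference of the glycolysis and hypoxia list was -0.0227. At day 6 alone 2 of its members were lower and 0 higher by limma, and at day 10 alone 4 were higher. Cholesterol synthesis genes gave 0 calls of 15 by limma, with 5 at an unadjusted p under 0.05. Of 14 aldo-keto reductases and aldehyde dehydrogenases, 5 were lower and 1 higher. Beside Akr1c14, the retinaldehyde dehydrogenase Aldh1a1 (-0.73 ± 0.06), its near-identical relative Aldh1a7 (-1.003 ± 0.07) and Akr1c18 (-0.81 ± 0.04) fell and Aldh3a1 rose (0.60 ± 0.05). Whether probes of such close relatives cross-hybridise was not tested, so the values of this family are uncertain.

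Several secreted signals changed besides. Of 18 neuropeptides and their receptors, 3 were higher and 5 lower (all genes 4.83% and 6.06%). Tacr1, the substance P receptor (-0.68 ± 0.06), and Penk, the precursor of enkephalins (-0.67 ± 0.05), fell, in contrast to Npy and Npy2r. Of 24 growth factors, receptors and members of the IGF axis, 6 were lower and 3 higher (all genes 6.06% and 4.83%). Igfbp7, a binding protein of insulin-like growth factors, was 10.25 and 10.24 at day 6 and 9.71 and 9.75 at day 10 without HDAC7, and 9.55 and 9.49 at day 6 and 8.34 and 8.36 at day 10 with it (2.07-fold lower, adjusted p = 2.24e-07), and its arms did not overlap. Igfbp5 (-0.59 ± 0.05) and Igf1 (-0.55 ± 0.07) also fell, and Ereg, epiregulin (0.47 ± 0.06), and Erbb3, a receptor of neuregulins (0.44 ± 0.07), rose. In the Fraser complex and its partners 3 of 6 genes fell, Frem2, the integrin ligand Npnt, nephronectin (-1.05 ± 0.07), and its receptor subunit Itga8 (-0.56 ± 0.06). Fras1 (0.15 ± 0.04, adjusted p = 0.058) and Frem1 (0.12 ± 0.08, adjusted p = 0.393), the other large proteins of that complex, did not pass.

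Markers of other cell types were read beside these results. Of 14 endothelial markers, Cd34, Esm1 and Tek, an angiopoietin receptor (0.60 ± 0.06), rose, and the mean level of the list was 5.61 to 5.81 on the SKO+Flag arrays and 5.99 to 6.05 on the SKO+HDAC7 arrays. The defining endothelial genes Pecam1 (0.01 ± 0.07, adjusted p = 0.973; below 0 in 6 of the alternatives) and Cdh5 (0.08 ± 0.05, adjusted p = 0.364) lay below the median on all 8 arrays, as did 7 further members of that list. Of 13 neural and glial markers, 6 rose, led by Nefl, which was 6.75 and 6.56 at day 6 and 6.79 and 6.78 at day 10 without HDAC7 and 8.01 and 8.07 at day 6 and 7.58 and 7.58 at day 10 with it (2.13-fold, adjusted p = 2.9e-05), and Gap43, a growth cone protein (0.40 ± 0.04). Dcx, Gfap and 3 other neural markers lay below the median on all 8 arrays, and the mean level of the list was 6.35 to 6.55 without HDAC7 and 6.55 to 6.79 with it. Of 10 macrophage and blood markers, 7 lay below the median on all 8 arrays, and the lysosomal protein gene Cd68 rose (0.63 ± 0.07). Laptm5, another lysosomal membrane protein gene of blood cells, fell (-0.22 ± 0.06, adjusted p = 0.0394). Its call was lost in 7 of the 8 fits that left out 1 array, all but that without SKO+HDAC7 replicate 1 of day 10.

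The difference was also tested at each day alone, 2 arrays against 2. At day 6, 914 genes were called (4.58%), 363 higher (1.82%) and 551 lower (2.76%), and at day 10, 1450 (7.27%), 663 higher (3.33%) and 787 lower (3.95%). With median centring the splits were 235 higher and 708 lower at day 6 and 465 and 856 at day 10. Fits of that day's 4 arrays alone called 375 and 501 genes, fits without any 1 of the day 6 arrays called 293 to 460 at day 6, and fits without SKO+HDAC7 replicate 1 or 2 of day 10 called 793 and 785 at day 10. By direction, fits without a day 6 array gave 104 to 179 higher and 189 to 281 lower at day 6. At day 10 the higher genes were 412 without SKO+Flag replicate 1, 334 without SKO+HDAC7 replicate 1 and 295 without SKO+HDAC7 replicate 2, and the lower genes 459 and 490 without these SKO+HDAC7 arrays. These day comparisons share no arrays, and across the 19935 genes, which are not independent replicates, their differences correlated at r = 0.517. Of the genes called, 459 were called at both days, 137 higher at both, 318 lower at both and 4 in opposite directions, so that 49.8% of the day 6 calls and 31.4% of the day 10 calls were shared in direction. After Hdac7, the genes raised most at day 6 were Cd34 (1.41 ± 0.09), Nefl (1.39 ± 0.13), Esm1 (1.36 ± 0.14) and Lpl (1.29 ± 0.12), and those lowered most were Akr1c14 (-1.94 ± 0.14), Frem2 (-1.29 ± 0.09), F3 (-1.15 ± 0.08), Pakap, which holds an anchor of protein kinase A (-1.14 ± 0.08), and Myl9 (-1.10 ± 0.09). At day 10 the largest rises after Hdac7 were those of Krt19 (1.76 ± 0.07), Ehf (1.29 ± 0.10), Dkkl1 (1.21 ± 0.10) and Gbp4, an interferon-induced GTPase (1.12 ± 0.11), and the largest falls those of Frem2 (-1.73 ± 0.09), Vcam1 (-1.66 ± 0.07), Col8a1 (-1.65 ± 0.11), Mgp (-1.65 ± 0.09) and Cd36 (-1.47 ± 0.19).

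Counts by gene group are given for each day, although a call at 1 day alone does not show that the days differ. Over all genes, 1.82% were called higher at day 6 and 3.33% at day 10. Called lower were 2.76% and 3.95%, so calls were more frequent at day 10 over all genes too. Contractile genes gave 10 lower of 18 at day 6 and 9 at day 10. Keratins gave 5 of 16 higher at day 6 and 8 at day 10, DNA replication genes 2 of 27 and then 14, interferon-stimulated genes 2 of 25 and then 8, matrix proteases 2 of 18 lower and then 8, and non-fibrillar collagens 5 of 18 lower and then 9. The change of the HDAC7 difference between the days was therefore tested by itself, and 25 genes passed (0.125%), 17 changing downwards (0.0853%) and 8 upwards (0.0401%), or 9 each after median centring. For 19 of them the difference had the same sign at both days and was larger at day 10, and for 6 the signs were opposite. The count was 2 in a fit of the 8 arrays alone, ran from 0 by limma without SKO+HDAC7 replicate 2 of day 10 (1692 at an unadjusted p under 0.05) to 483 without SKO+Flag replicate 2 of day 10 across fits that left out 1 array, and is not stable.

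Fbln5, Thbs1, Bgn and Mgp were among the matrix genes whose difference widened. Fbln5 was 12.07 and 12.13 without HDAC7 and 11.70 and 11.62 with it at day 6, and 11.51 and 11.61 against 10.29 and 10.32 at day 10. The difference thus went from -0.45 ± 0.06 to -1.25 ± 0.06, a change of -0.81 ± 0.09 (adjusted p = 0.00774). Thbs1 went from -0.47 ± 0.06 to -1.27 ± 0.06 (change -0.79 ± 0.08, adjusted p = 0.00739), Bgn from -0.49 ± 0.07 to -1.28 ± 0.07 (change -0.79 ± 0.09, adjusted p = 0.0127), and Mgp from -0.83 ± 0.09 to -1.65 ± 0.09 (change -0.82 ± 0.13, adjusted p = 0.0449). Dkk2 changed by -0.85 ± 0.13 (adjusted p = 0.0449), and Anxa10, an annexin, by -0.84 ± 0.11 (adjusted p = 0.0219). Its SKO+HDAC7 values at day 10, 5.09 and 5.12, lay below the array medians. The size of that change is therefore uncertain. Vegfd, a growth factor of lymphatic vessels, had differences of opposite sign at the days. At day 6 it was 7.71 and 7.60 without and 7.88 and 7.82 with HDAC7, a small difference of 0.191. At day 10 it was 8.03 and 8.05 against 7.20 and 7.20 (change -1.03 ± 0.09, adjusted p = 0.00659).

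Among those that changed upwards, Ltf, lactoferrin, was 5.49 and 5.69 without and 5.68 and 5.56 with HDAC7 at day 6, and 6.69 and 6.87 against 7.79 and 7.98 at day 10 (change 1.08 ± 0.14, adjusted p = 0.0175). Pcx, pyruvate carboxylase, was 6.38 and 6.61 without and 6.37 and 6.45 with HDAC7 at day 6, and 7.04 and 7.03 against 8.06 and 7.999 at day 10 (change 1.08 ± 0.12, adjusted p = 0.00774). In both genes the arms overlapped at day 6 and were apart at day 10. Itgam, an integrin chain of myeloid cells, was lower with HDAC7 at day 6 (-0.43 ± 0.07) and higher at day 10 (0.54 ± 0.07), a change of 0.97 ± 0.10 (adjusted p = 0.00765). Ehf changed by 1.02 ± 0.14 (adjusted p = 0.0302) and Gbp4 by 0.96 ± 0.15 (adjusted p = 0.0449). All these genes, like the rest of the 25, lost the call without SKO+HDAC7 replicate 2 of day 10.

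**Figure D5:**
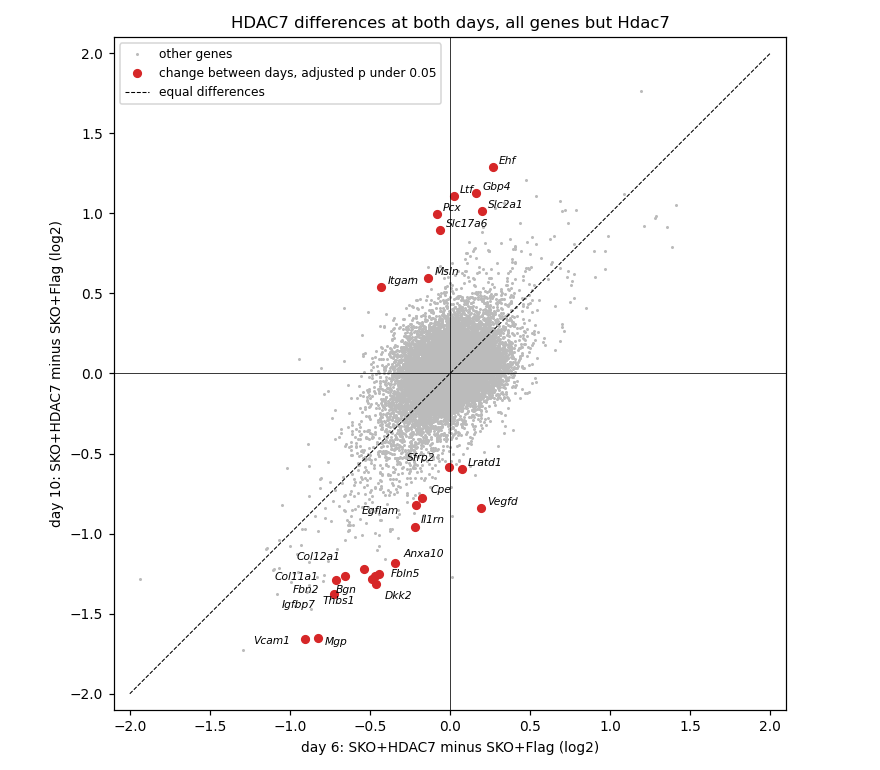
Difference between SKO+HDAC7 and SKO+Flag at day 6 (horizontal) and day 10 (vertical), log2, for every gene except Hdac7; the 25 genes whose difference changed between the days are red and named, and the dashed line marks equal differences. Mgp, Vcam1, Bgn and Thbs1 lie below the line at the lower left, and Ehf, Ltf and Gbp4 near the vertical axis at the top.

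SKO+HDAC7 was also compared directly with SKO+MEF2C, MEF2 factors being the partners that class IIa deacetylases repress. This comparison uses the same SKO+HDAC7 arrays as those above, and its controls are the 4 SKO+MEF2C arrays. It called 4395 genes (22%), 2051 higher with HDAC7 (10.3%) and 2344 lower (11.8%). Contractile genes were lower with HDAC7 for 14 of 18 (median -0.699) and mesenchymal genes for 15 of 24, while interferon-stimulated genes were higher for 18 of 25 (median 0.46), mitosis genes for 17 of 20 (median 0.378), DNA replication genes for 22 of 27 (median 0.354) and keratins for 8 of 16. For reference, the list medians of SKO+MEF2C minus SKO+Flag, a comparison that shares arrays with those above, were 0.458 for contractile, 0.157 for mesenchymal, -0.225 for interferon-stimulated, -0.236 for mitosis, -0.155 for DNA replication and 0.0049 for keratin genes. Those of SKO+HDAC7 minus SKO+Flag were -0.295, -0.105, 0.204, 0.146, 0.187 and 0.23 in the same order. Mef2c was 9.72 and 9.47 at day 6 and 9.93 and 9.80 at day 10 with MEF2C and differed by -3.26 ± 0.07.

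Anxa10 showed the largest gap after the added factors (-3.04 ± 0.06, adjusted p = 2.26e-10). It was 10.04 and 9.89 at day 6 and 9.11 and 9.24 at day 10 with MEF2C, 8.34 and 8.29 at day 6 and 6.39 and 6.19 at day 10 with the empty vector, and 7.97 and 7.96 at day 6 and 5.09 and 5.12 at day 10 with HDAC7, so the empty vector lay in between at both days. Since the day 10 values with HDAC7 lay below the array medians, the size of the gap is uncertain. Akr1c14 was 9.83 and 9.79 at day 6 and 9.69 and 9.73 at day 10 with MEF2C (-2.99 ± 0.10 with HDAC7 against MEF2C), Col8a1 differed by -2.38 ± 0.08 and Npnt by -2.28 ± 0.07. Among genes higher with HDAC7, Cd34 was 7.14 and 7.16 at day 6 and 8.69 and 8.68 at day 10 with MEF2C (2.19 ± 0.07). For Nefl (1.99 ± 0.09), Lpl (1.89 ± 0.08) and Krt19 (1.74 ± 0.05) SKO+HDAC7 again lay above SKO+MEF2C. Col3a1 differed by 0.90 ± 0.05 and its SKO+MEF2C values of 8.77 and 8.90 at day 6 and 9.17 and 9.03 at day 10 overlapped those of SKO+Flag. Vcam1 likewise was near its SKO+Flag level with MEF2C (10.56 and 10.50 at day 6 and 10.58 and 10.53 at day 10; HDAC7 against MEF2C -1.22 ± 0.05), as was Hdac5 (7.10 and 7.20 at day 6 and 7.21 and 7.34 at day 10; -0.60 ± 0.06).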

How the data were processed

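RNA of 14 mouse samples was measured on Affymetrix whole-transcript arrays. The authors deposited log2 expression values per probe set; the submitters' processing notes name RMA and Partek but no version, and the genome build is not given in the sources used here. Of 28815 probe sets, 21780 carried 1 gene symbol, 1605 several and 5430 none. Each of 19935 genes was represented by 1 probe set, that of highest average level across the arrays. A limma model (3.58.1, R 4.3.3) with 8 vector-by-day groups was fitted to all 14 arrays, and Benjamini-Hochberg adjusted p under 0.05 was called; day enters as a covariate by averaging the differences of both days. The numbers of arrays limit the precision. Data were simulated for the mean of both days over 19935 genes. In them 56.8% of changes of 0.3 and 95.4% of changes of 0.6 were recovered. Far fewer genes were changed in those data than were called here, which alters the adjusted threshold. These rates are therefore not the sensitivity of this comparison.

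Members and gene lists were chosen with earlier results of these data known. Named genes were the transduced factors, the 12 largest called differences per direction with 1 sign in all 4 same-day pairs, the 5 largest per direction in the other comparisons, and up to 5 called members per list, with uncalled defining members given with their values. Other genes, such as those shown for their promoters, were chosen after their values were seen. Same-numbered arrays of different groups correlated at -0.242 to 0.152 in their deviations, so the experiment numbers were not treated as pairs in the main tests. Alternatives were other normalizations, priors, filters, probe set rules, replicate blocks and leaving out each array.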

Additional observations from a re-analysis of the deposited data

Results flagged for a closer look

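The difference between SKO+HDAC7 and SKO+Flag changed between day 6 and day 10 for 25 genes by the test of that change itself, which singles them out here. Of the 25, 17 changed downwards and 8 upwards, and values follow only for those named in the text. The change, day 10 minus day 6 on the log2 scale, was downwards for Vegfd (-1.03), Dkk2 (-0.85), Anxa10 (-0.839), Mgp (-0.822), Fbln5 (-0.809), Bgn (-0.795), Thbs1 (-0.795), Vcam1 (-0.75), Il1rn (-0.734), Col12a1 (-0.683), Igfbp7 (-0.654), Col11a1 (-0.608) and Fbn2 (-0.578). The day 10 SKO+HDAC7 values of Anxa10 lay below the array medians. The change was upwards for Slc2a1 (0.82), Gbp4 (0.962), Itgam (0.971), Ehf (1.02), Pcx (1.08) and Ltf (1.08). Without SKO+HDAC7 replicate 2 of day 10 limma called 0 genes for this change, with 1692 at an unadjusted p under 0.05.

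Probe sets outside the gene table also carried differences between the vectors. Of 5430 probe sets with no gene name, 258 were called on the mean of both days (4.75%), 139 higher and 119 lower with HDAC7. Of 1605 probe sets that list several genes, 144 were called (8.97%), 116 higher and 28 lower.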

How the results depend on the processing

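The mean of both days gave 2171 calls, 1387 with day as an additive covariate in the 8 arrays alone, and 1469 to 2404 without 1 array. Day 6 gave 914, 375 with only its own arrays in the fit, and 293 to 460 without 1 of them. Day 10 gave 1450, 501 with only its own arrays, and 785 to 1484 without 1 array. The change between days gave 25, 2 with only the compared arrays, 66 with an intensity-dependent robust prior, 63 after quantile normalization, 69 among genes above the median level, and 0 to 483 without 1 array (0 by limma without SKO+HDAC7 replicate 2 of day 10, where 1692 had an unadjusted p under 0.05). The comparison with MEF2C gave 4395 and stayed within 1.5 times of that in every alternative run. With the experiment number as a replicate block over both days the counts were 2152, 897, 1377, 15 and 4389, and 2281 for the mean of both days with a block within each day. Klf4 was -0.0037 after median centring, -0.0186 without SKO+Flag replicate 1 of day 6 and -0.0094 without SKO+HDAC7 replicate 1 of day 10, and at most 0.0797 without 1 array. Pecam1 was -0.0367 after quantile normalization, -0.0287 after median centring, and -0.0632 to -0.0051 in 4 fits without 1 array (-0.0467 and -0.0167 in between), which reached 0.0744 in the others. Of 207 results on named genes that were called, 174 kept their call in every alternative run. The causes were not tested. Levels under the array medians limit what can be read from keratin, pluripotency and marker genes.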
